A study of Mus musculus with 96 samples.

Results

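Whole blood of male mice was compared 15 days after the immunisation that starts collagen induced arthritis, between mice that carry the Ncf1 mutation (strain C57BL/10.Q/rhd.Ncf1m1J, 12 mice, below Ncf1 mice) and wild type mice of the same background (strain C57BL/10.Q/rhd, also called BQ, 12 mice, below wt mice). These 24 arrays, 1 per mouse, were chosen by the labels for tissue, day and genotype from the 96 arrays of the series. The other arrays hold blood of different mice at day 44 (24 arrays) and the spleens of both sets of mice. The day 44 blood arrays were fitted together with those of day 15, so the calls also rest on their spread. Spleen arrays serve below for comparison. Each genotype had 6 mice of experiment I, in which blood RNA was isolated with Ambion kits and purified with lithium chloride, and 6 of experiment II, in which blood was collected in Qiagen RNAprotect tubes. All mice were immunised, so both groups carry the response to immunisation, and unimmunised mice were not analysed here. The mutation is inherited, so it is present in every cell of the mouse and not in 1 cell type. Blood was neither sorted nor cultured, and globin transcripts were depleted from all samples.

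Ncf1 encodes p47phox, the cytosolic organiser of the phagocyte NADPH oxidase, with which neutrophils, monocytes and macrophages make superoxide. The Ncf1m1J allele is a splice site mutation that leaves the animal without a working oxidative burst. Interferons act on nearly all blood cells: type I interferons drive antiviral genes, and interferon-gamma drives guanylate binding proteins, immunity-related GTPases and antigen presentation. Blood transcripts are a sum over cells, so that more cells of a type and more RNA per cell cannot be told apart in what follows.

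Levels are log2 probe intensities, on which the median probe of every array lay at 6.20, taken here as a guide to background. Differences are Ncf1 minus wt on the log2 scale ± standard error, from limma with the experiment as a term (12 mice per genotype) or from limma within 1 experiment (6 mice per genotype). Calls rest on p values adjusted over 16593 genes by Benjamini-Hochberg, with a threshold of 0.05. The red cell gene Hbb-bt averaged 11.07 in Ncf1 mice and 11.45 in wt mice, the T cell gene Cd3e 9.36 and 9.52, the B cell gene Cd79a 9.94 and 9.98, and the platelet gene Ppbp 12.14 and 11.88, all well above the array median, as blood holds them. Replicate 6 of the Ncf1 mice in experiment I stood apart. Over all genes its median correlation was 0.87 with the other arrays of experiment I and 0.969 with those of experiment II, and its closest array was one of experiment II, whereas each of the other 23 arrays was closest to an array of its own experiment. Replicate 3 of the Ncf1 mice in experiment I leaned the same way, but less. Its median correlation was 0.913 with experiment I and 0.921 with experiment II, and its closest array was one of experiment I. Calls over both experiments are therefore given with replicate 6 and without it. Ranges, medians and differences within experiment I include replicate 6 unless stated.

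Blood of Ncf1 mice held more transcripts of interferon-induced genes, and fewer of Ncf1 itself. Limma called 24 genes (0.145% of those tested), 22 higher in Ncf1 mice (0.133%) and 2 lower (0.0121%). Interferon-induced GTPases (Gbp2, Gbp3, Gbp7, Irgm2, Gvin1), antiviral genes (Oasl2, Oas1g, Oas2, Ifit3, Ifitm3, Usp18) and antigen presentation genes (Psmb9, H2-Q7) made up 13 of the 22 rises. The others were the macrophage gene Aif1, the monocyte genes Ms4a6d and Ly6c1, the myeloid genes Fpr2, Lcn2, Ctsc, Ffar2 and Casp4, and the redox enzyme gene Glrx. The sign was the same in both experiments for all 24. In experiment II the genotypes did not overlap for 18 of the 24 (2.12% of all genes tested), and in experiment I for 4 (0.205%). The 24 were chosen as called on these same arrays, which favours a shared sign and a lack of overlap, so neither is support for them. The median over all genes was -0.005, so there was no general shift. Without replicate 6 of experiment I, 11 genes were called (0.0663%), all among the 24: Aif1, Irgm2, Gbp2, Gvin1, Ifitm3, Gbp3, Gbp7, Oasl2, Oas1g, Glrx and Ncf1. A fit of the day 15 arrays alone, without those of day 44, kept 13 of the 24 calls.

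**Figure D1:**
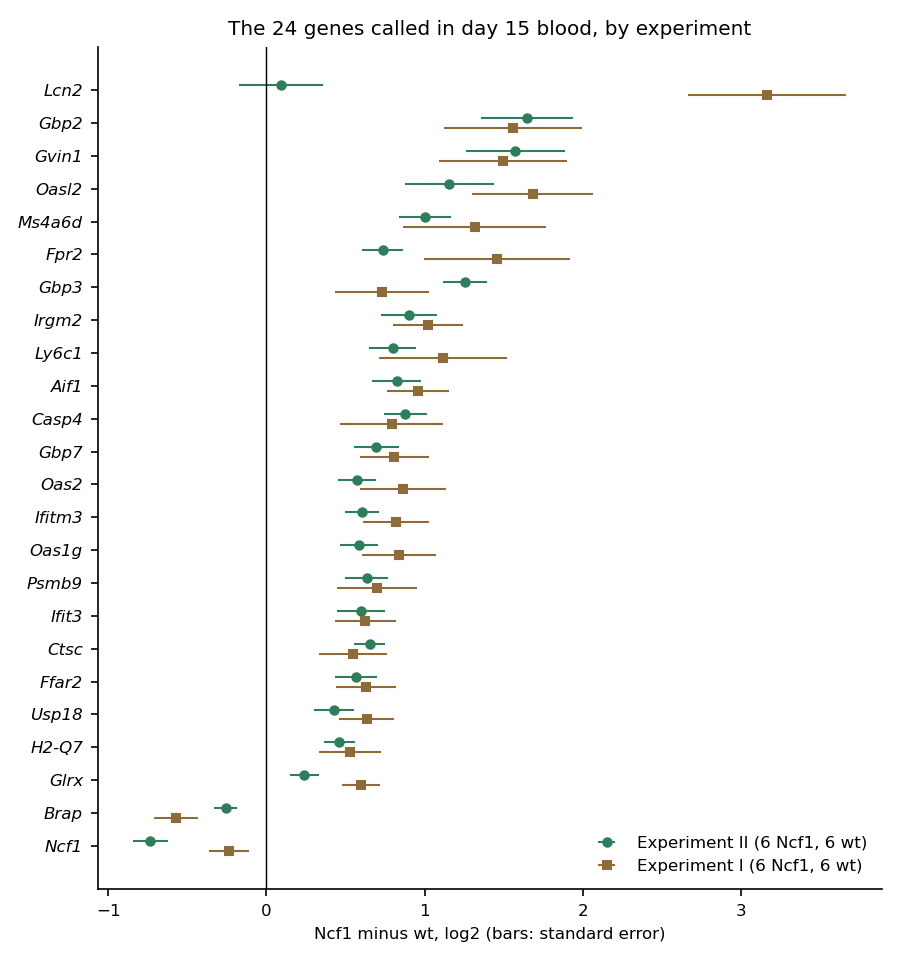
Difference Ncf1 minus wt (log2, x axis) with its standard error for the 24 genes called in day 15 blood (rows), in experiment II (circles) and experiment I (squares), 6 Ncf1 and 6 wt mice each. All points of Ncf1 and Brap lie below 0 and those of the other genes above it. Lcn2 is the gene whose experiments lie farthest apart, 0.09 in experiment II and 3.17 in experiment I.

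The level of the mutated gene could check the genotype labels in experiment II, but not in experiment I, where it lay near background. Ncf1 lay at 6.35 to 6.76 (median 6.62) in Ncf1 mice and 7.0 to 7.73 (median 7.32) in wt mice in experiment II, so that the 2 genotypes did not overlap. In experiment I the levels were 5.87 to 6.34 (median 6.04) in Ncf1 mice and 5.91 to 6.58 (median 6.30) in wt mice, close to the array median, and they overlapped. The difference was -0.48 ± 0.10 (adjusted p = 0.0156) over both experiments, -0.73 ± 0.11 in experiment II and -0.23 ± 0.13 in experiment I. In experiment I background bounds the size of the fall, since 5 of the 6 Ncf1 mice lay below the array median of 6.20. A second Ncf1 probe lay at 5.96, below the array median, and showed -0.09 ± 0.04. None of the other 13 measured NADPH oxidase genes was called. Cyba, the membrane subunit p22phox, showed 0.29 ± 0.20, Ncf4, the cytosolic subunit p40phox, 0.25 ± 0.15, and Rac2, the small GTPase of the complex, 0.27 ± 0.17. The probe of Cybb, the catalytic subunit, averaged 6.0 in Ncf1 mice and 5.98 in wt mice, below the array median, where a fall could not be seen. Brap, a gene for a BRCA1-associated ubiquitin ligase, was the other called fall (-0.41 ± 0.08, adjusted p = 0.0156). In experiment II all Brap values of Ncf1 mice lay below those of wt mice, at 6.85 to 7.01 (median 6.95) in Ncf1 mice and 7.05 to 7.54 (median 7.14) in wt mice, and in experiment I they lay at 6.76 to 7.35 (median 7.07) in Ncf1 mice and 7.28 to 8.34 (median 7.51) in wt mice. Its adjusted p was 0.0501 without replicate 6 of experiment I.

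Guanylate binding proteins and immunity-related GTPases, which attack the vacuoles of intracellular microbes and are classic products of interferon-gamma, were among the largest rises. Gbp2 was 3.04-fold higher in Ncf1 mice (1.60 ± 0.26, adjusted p = 0.00143). In experiment II it lay at 10.91 to 11.99 (median 10.98) in Ncf1 mice and 9.15 to 9.67 (median 9.62) in wt mice, with no overlap. In experiment I it lay at 9.93 to 11.76 (median 10.33) in Ncf1 mice and 8.26 to 10.80 (median 8.91) in wt mice, where a single wt mouse at 10.80 reached into the range of the Ncf1 mice and the other 5 lay below all of them. Gvin1, a very large interferon-induced GTPase, followed the same pattern: 10.68 to 12.50 (median 11.54) in Ncf1 mice and 9.55 to 10.51 (median 10.00) in wt mice in experiment II, without overlap, and 10.58 to 11.62 (median 11.30) in Ncf1 mice and 8.85 to 11.46 (median 9.55) in wt mice in experiment I. Its difference was 1.53 ± 0.27 (adjusted p = 0.00239). Irgm2, a regulator of the immunity-related GTPases, lay at 9.65 to 10.31 (median 10.09) in Ncf1 mice and 8.94 to 9.21 (median 9.15) in wt mice in experiment II and at 9.04 to 10.41 (median 9.97) in Ncf1 mice and 8.32 to 9.74 (median 8.80) in wt mice in experiment I (0.96 ± 0.15, adjusted p = 0.000371). In experiment II all 6 Ncf1 mice lay above the highest wt mouse, and in experiment I 5 of 6 did. Gbp3 (adjusted p = 0.00239) showed 1.26 ± 0.14 in experiment II and 0.73 ± 0.30 in experiment I. Gbp7 (adjusted p = 0.00239) showed 0.70 ± 0.14 in experiment II and 0.81 ± 0.22 in experiment I. The GBP genes form a family of close copies, and how far their probes read each other's transcripts was not tested. Other probes of Gbp2, Gvin1, Oas1g, Aif1 and Casp4 disagreed with the kept one, and several of them lay near the array median. The second Gbp2 probe, at a mean of 6.52, showed 0.60 ± 0.17, and another, at 5.97, showed 0.04 ± 0.03. The 2 other Gvin1 probes lay at 6.06 and 6.05 and showed -0.04 ± 0.03 and -0.01 ± 0.03.

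Of the 33 measured genes of the interferon-gamma-inducible list, 6 were called higher and 0 lower, against 0.133% of all genes higher. Their median was 0.27, and 23 of 33 lay above 0 in both experiments, against 3923 of all 16593 genes. Within experiment II the median was 0.29, and within experiment I 0.17 (0.13 without replicate 6). Cxcl9, the interferon-gamma-induced chemokine for activated T cells, missed the threshold with 0.91 ± 0.21 (adjusted p = 0.0571), and so did Irgm1 with 0.40 ± 0.10 (adjusted p = 0.0783) and the transcription factor gene Irf1 with 0.64 ± 0.18 (adjusted p = 0.204). The mean level over the list was 8.34 to 8.56 (median 8.45) in Ncf1 mice and 8.01 to 8.10 (median 8.04) in wt mice in experiment II, which do not overlap. In experiment I it was 7.96 to 8.53 (median 8.08) in Ncf1 mice and 7.59 to 8.28 (median 7.80) in wt mice, which do. Leaving out replicate 6 of experiment I left 5 members called, with a median of 0.22.

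Antiviral genes of the type I interferon response rose as well. Oasl2, a relative of the oligoadenylate synthetases that sense double-stranded RNA, was 2.68-fold higher (1.42 ± 0.27, adjusted p = 0.00958). Its levels were 8.21 to 10.44 (median 8.74) in Ncf1 mice and 7.27 to 8.27 (median 8.04) in wt mice in experiment II, where 5 of 6 Ncf1 mice lay above every wt mouse, and 9.09 to 10.08 (median 9.79) in Ncf1 mice and 7.13 to 9.01 (median 8.06) in wt mice in experiment I, with no overlap. The synthetase genes Oas1g (0.71 ± 0.14, adjusted p = 0.0104) and Oas2 (0.72 ± 0.15, adjusted p = 0.023) moved by about the same amount as each other. Oas1g is one of several close copies of Oas1, and cross-reading between them was not tested. Ifit3, of the interferon-induced tetratricopeptide repeat family of RNA-binding antiviral proteins, lay at 9.08 to 9.69 (median 9.28) in Ncf1 mice and 8.42 to 8.96 (median 8.73) in wt mice in experiment II and 8.54 to 9.80 (median 9.12) in Ncf1 mice and 8.02 to 8.94 (median 8.49) in wt mice in experiment I (0.61 ± 0.12, adjusted p = 0.0156). The 6 Ncf1 mice lay above all wt mice in experiment II, and 4 of 6 did so in experiment I. Usp18, which removes ISG15 from proteins and dampens the interferon receptor, rose by 0.53 ± 0.12 (adjusted p = 0.0363). Ifitm3, a membrane protein that blocks virus entry and that is abundant in neutrophils and monocytes, lay at 12.72 to 13.03 (median 12.97) in Ncf1 mice and 11.99 to 12.51 (median 12.31) in wt mice in experiment II and 11.85 to 12.72 (median 12.57) in Ncf1 mice and 11.16 to 11.88 (median 11.65) in wt mice in experiment I (0.71 ± 0.13, adjusted p = 0.00239). The 6 Ncf1 mice of experiment II lay above all wt mice of that experiment, and 5 of 6 did so in experiment I.

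Of 49 measured type I interferon genes, 5 were called higher (Oasl2, Oas1g, Oas2, Ifit3 and Usp18) and 0 lower, against 0.133% of all genes higher. The median was 0.16, with 0.19 in experiment II and 0.18 in experiment I (0.15 without replicate 6). In both experiments 36 of 49 lay above 0, against 3923 of all 16593 genes. Over the list the mean level was 8.01 to 8.25 (median 8.10) in Ncf1 mice and 7.86 to 7.94 (median 7.88) in wt mice in experiment II, with no overlap. In experiment I it was 7.64 to 7.97 (median 7.72) in Ncf1 mice and 7.29 to 7.69 (median 7.44) in wt mice, with a slight overlap. With replicate 6 of experiment I left out, 2 members were called and the median was 0.14. Of the 21 measured genes for interferons, their receptors and their signalling factors, 0 passed in limma and the median was 0.12. The 2 smallest p values were those of Socs3 (0.52 ± 0.17, adjusted p = 0.426) and Myd88 (0.48 ± 0.16, adjusted p = 0.478).

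**Figure D2:**
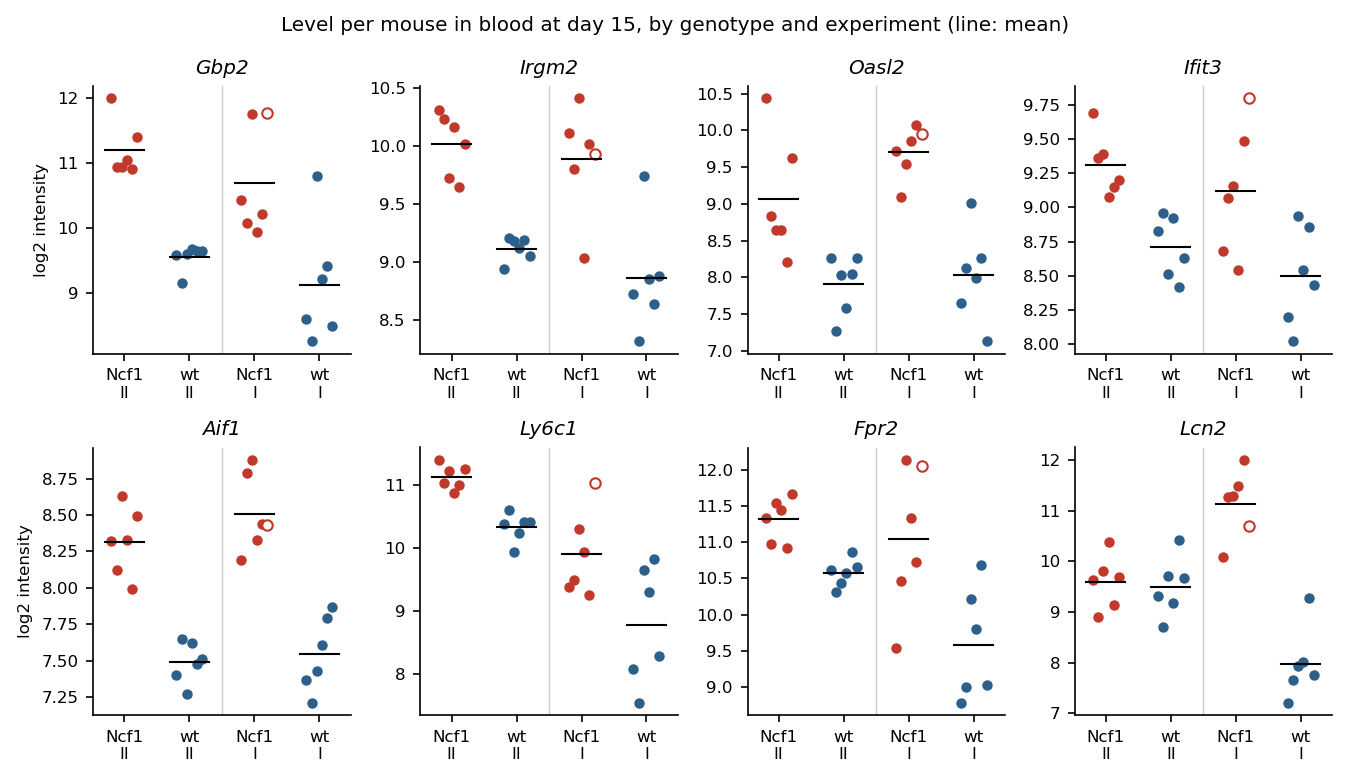
Level of 8 called genes in each mouse (log2 intensity, y axis) at day 15 in blood, with Ncf1 mice (red) left of wt mice (blue) within experiments II and I; the line is the mean of 6 mice and the open circle is replicate 6 of experiment I. In experiment II the genotypes do not overlap for Gbp2, Irgm2, Ifit3, Aif1, Ly6c1 and Fpr2, and they overlap throughout for Lcn2, which is separated in experiment I.

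Promoters of the called genes are shown because interferon factors are known to bind GAAA repeats. A window around the start (250 bases upstream and 50 after it, RefSeq, GRCm38.p6) was found for 18 of the 22 genes that rose; Gvin1, Oas2, Ms4a6d and Usp18 had none. The motif GAAANNGAAA, the core shared by interferon-stimulated response elements and IRF sites, was searched on both strands in the 250 upstream bases, and overlapping matches were counted apart. It was present in 7 of these 18 genes (38.9%), against 3.62% of the 13336 genes on the array with a window and 3.46% of all 27025. A match describes letters, and no binding was measured. The 7 stretches follow, 5′ to 3′ on the strand of the gene, with the matches on either strand in capitals.
Aif1, chr17:35176180-35176229, minus strand: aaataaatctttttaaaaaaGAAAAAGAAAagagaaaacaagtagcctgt
Irgm2, chr11:58214893-58214942, plus strand: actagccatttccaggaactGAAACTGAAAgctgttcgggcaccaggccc
Gbp2, chr3:142620584-142620633, plus strand: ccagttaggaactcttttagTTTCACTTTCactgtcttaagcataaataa
Gbp3, chr3:142559979-142560034, plus strand: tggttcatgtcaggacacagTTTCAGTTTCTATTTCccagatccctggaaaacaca
Gbp7, chr3:142530263-142530312, plus strand: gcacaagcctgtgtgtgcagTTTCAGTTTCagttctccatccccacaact
Oas1g, chr5:120887614-120887651, minus strand: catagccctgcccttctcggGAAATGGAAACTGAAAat
Ifit3, chr19:34583353-34583436, plus strand: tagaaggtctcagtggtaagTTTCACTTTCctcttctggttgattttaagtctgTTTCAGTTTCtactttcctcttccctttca
Gbp3, Oas1g and Ifit3 hold 2 matches each, which overlap in Gbp3 and Oas1g. The match of Oas1g ends 3 bases before the start, and that of Aif1 begins 157 bases before it. Over the 58 genes of both interferon lists with a window, 41.4% held the motif.

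Genes of antigen presentation on MHC class I, a further arm of the interferon response, lay above wt levels across much of the list. The immunoproteasome subunit gene Psmb9 (0.67 ± 0.14, adjusted p = 0.0286) and the class I gene H2-Q7 (0.49 ± 0.11, adjusted p = 0.0363) were the 2 called members of 19, both higher, against 0.133% of all genes. Psmb9 also counts among the called members of the interferon-gamma-inducible list. The list had a median of 0.39, with 16 of 19 above 0 in both experiments, against 3923 of all 16593 genes. Psmb9 lay at 10.03 to 10.44 (median 10.37) in Ncf1 mice and 9.47 to 9.82 (median 9.63) in wt mice in experiment II, without overlap, and at 9.14 to 10.70 (median 9.75) in Ncf1 mice and 8.42 to 9.86 (median 9.10) in wt mice in experiment I. In experiment I the 2 highest of the Ncf1 mice lay above all wt mice, and one of them was replicate 6 at 10.70. H2-Q7 belongs to a cluster of near-identical class I genes whose probes may not separate the copies. B2m, the shared light chain of class I, showed 0.39 ± 0.10 (adjusted p = 0.125), and Nlrc5, the transactivator of class I genes, 0.56 ± 0.14 (adjusted p = 0.124). Without replicate 6 of experiment I, 0 members were called and the median was 0.33. None of the 14 genes of the MHC class II list, which also holds costimulatory genes, passed in the fit of both experiments (median 0.12).

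Among monocyte and macrophage genes 3 were called higher: Aif1, Ms4a6d and Ly6c1. Aif1, which encodes the actin-binding protein IBA1 of macrophages and microglia, had the smallest p of all genes (0.89 ± 0.13, 1.85-fold, adjusted p = 0.000253). It lay at 7.99 to 8.63 (median 8.32) in Ncf1 mice and 7.27 to 7.65 (median 7.50) in wt mice in experiment II and at 8.19 to 8.88 (median 8.43) in Ncf1 mice and 7.21 to 7.87 (median 7.52) in wt mice in experiment I. In both experiments every Ncf1 mouse lay above every wt mouse. A second Aif1 probe showed 0.67 ± 0.12, and another, at 6.04, showed 0.05 ± 0.05. Aif1 was in none of the lists. Ms4a6d, a tetraspan membrane protein of monocytes, lay at 9.45 to 10.65 (median 10.36) in Ncf1 mice and 9.01 to 9.33 (median 9.21) in wt mice in experiment II and 7.98 to 9.74 (median 8.99) in Ncf1 mice and 6.89 to 8.49 (median 7.66) in wt mice in experiment I (1.16 ± 0.25, adjusted p = 0.0275). All 6 Ncf1 mice of experiment II and 5 of 6 in experiment I lay above the highest wt mouse. Ly6c1, of the Ly6C surface antigens of inflammatory monocytes, lay at 10.88 to 11.40 (median 11.12) in Ncf1 mice and 9.94 to 10.61 (median 10.40) in wt mice in experiment II, with no overlap, and at 9.25 to 11.03 (median 9.71) in Ncf1 mice and 7.55 to 9.83 (median 8.80) in wt mice in experiment I (0.96 ± 0.22, adjusted p = 0.0443). Without replicate 6 of experiment I, whose Ly6c1 level of 11.03 was the highest of that experiment, the difference was 0.85 ± 0.21 and the adjusted p 0.121; for Ms4a6d these were 1.10 ± 0.25 and 0.0729. Ly6c1 has a close copy in Ly6c2, so the 2 genes may not be told apart.

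Of 30 measured classical monocyte and macrophage genes Ms4a6d and Ly6c1 were called higher, against 0.133% of all genes, and the median was 0.21 (0.18 in experiment II, 0.21 in experiment I). Without replicate 6 of experiment I, 0 were called by limma, and the median was 0.18 over both experiments and 0.10 in experiment I. None of the 13 non-classical monocyte genes passed, with a median of 0.11 over both experiments and 0.29 in experiment I (0.07 and 0.10 without replicate 6). The mean level over the classical list was 8.47 to 8.93 (median 8.80) in Ncf1 mice and 8.36 to 8.60 (median 8.52) in wt mice in experiment II and 8.28 to 8.84 (median 8.48) in Ncf1 mice and 8.01 to 8.43 (median 8.17) in wt mice in experiment I, overlapping in both. The part of this shift in the rise of the interferon genes was not tested. The Fc gamma receptor genes, whose products bind immune complexes on monocytes and neutrophils, had a median of 0.38, but 0 of 10 were called by limma. All 10 lay above 0, against 7703 of all 16593 genes. Fcgr4, the activating receptor for IgG2 antibodies, missed the threshold at 0.95 ± 0.22 (adjusted p = 0.0569), as did Fcgr1, the high-affinity receptor, at 0.45 ± 0.11 (adjusted p = 0.0571). Fcgr4 lay at 11.45 to 12.12 (median 11.74) in Ncf1 mice and 10.43 to 11.19 (median 10.87) in wt mice in experiment II, without overlap, and 10.20 to 12.18 (median 11.01) in Ncf1 mice and 9.35 to 11.17 (median 10.04) in wt mice in experiment I, with overlap. Casp4, the caspase-11 sensor of intracellular lipopolysaccharide, rose by 0.84 ± 0.17 (adjusted p = 0.021). It was the called member of 16 Toll-like receptor and inflammasome genes, against 0.133% of all genes called higher. All 16 lay above 0, against 7703 of all 16593 genes. Ctsc, the protease that activates granule serine proteases (0.60 ± 0.12, adjusted p = 0.0156), Ffar2, a receptor for short-chain fatty acids on myeloid cells (0.60 ± 0.13, adjusted p = 0.0247), and Glrx, an enzyme that removes glutathione from proteins (0.42 ± 0.09, adjusted p = 0.0156), also rose. Casp4, Ctsc and Ffar2 lost the call without replicate 6 of experiment I (adjusted p = 0.0644, 0.0501 and 0.0729), and Glrx kept it.

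Neutrophil genes showed smaller differences in experiment II than in experiment I, although no gene passed the test of that difference after adjustment. Lcn2, the iron-sequestering secondary granule protein lipocalin 2, was 3.10-fold higher over both experiments (1.63 ± 0.37, adjusted p = 0.0397), with 0.09 ± 0.27 in experiment II and 3.17 ± 0.50 in experiment I. In experiment II it lay at 8.91 to 10.38 (median 9.67) in Ncf1 mice and 8.71 to 10.43 (median 9.49) in wt mice, where the highest and the lowest mouse were both wt. In experiment I it lay at 10.08 to 12.01 (median 11.29) in Ncf1 mice and 7.21 to 9.28 (median 7.85) in wt mice, with every Ncf1 mouse above every wt mouse. Of the 4 groups, the Ncf1 mice of experiment I had the highest median and the wt mice of experiment I the lowest. The difference of the effects, experiment II minus I, was -3.07 ± 0.58 (adjusted p = 0.0733), and under array weights it was -3.22 (adjusted p = 0.00727). Without replicate 6 of experiment I, Lcn2 showed 1.59 ± 0.38 (adjusted p = 0.0828). Fpr2, a receptor for formyl peptides that guides neutrophils, lay at 10.92 to 11.66 (median 11.40) in Ncf1 mice and 10.31 to 10.87 (median 10.60) in wt mice in experiment II, where the genotypes did not overlap, and at 9.54 to 12.14 (median 11.03) in Ncf1 mice and 8.78 to 10.69 (median 9.41) in wt mice in experiment I (1.10 ± 0.24, adjusted p = 0.0363, and 0.106 without replicate 6 of experiment I).

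In the mature neutrophil list 2 of 29 measured genes were called higher, against 0.133% of all genes, and 0 lower. These were Fpr2 and Ifitm3, and Ifitm3 also counts among the antiviral genes above. The list median was 0.53 over both experiments (0.43 without replicate 6 of experiment I), 0.02 in experiment II and 0.98 in experiment I (0.91 without replicate 6). The alarmin genes S100a9 (0.32 ± 0.19 and 1.60 ± 0.40) and S100a8 (0.38 ± 0.20 and 1.38 ± 0.40), the chemokine receptor gene Cxcr2 (-0.07 ± 0.23 and 1.71 ± 0.40) and the growth factor receptor gene Csf3r (-0.20 ± 0.24 and 1.27 ± 0.36) show the pattern, each given for experiment II and then I. None of these 4 was called in either. The effect differed between the experiments at an unadjusted p under 0.05 for 20 of 29 members (69%), against 5.51% of all genes, and for 0 members after adjustment. The mean level over the list was 9.20 to 9.70 (median 9.43) in Ncf1 mice and 9.15 to 9.66 (median 9.26) in wt mice in experiment II. In experiment I it was 8.50 to 9.90 (median 9.37) in Ncf1 mice and 8.03 to 9.08 (median 8.32) in wt mice. All wt mice of experiment I lay below every mouse of experiment II, and the Ncf1 mice of experiment I spanned the range of experiment II and more, with the different RNA isolation not told apart from other differences between the experiments. In the granule and precursor list 1 of 23 genes was called, Lcn2, against 0.133% of all genes higher. Over both experiments 20 of 23 lay above 0, against 7703 of all 16593 genes. The list median was 0.04 in experiment II and 0.14 in experiment I. The granule protein genes Camp (1.06 ± 0.30, adjusted p = 0.224) and Ngp (0.94 ± 0.23, adjusted p = 0.0962) and the primary granule protease gene Prtn3 (0.86 ± 0.25, adjusted p = 0.25) missed the threshold. Camp lay at 7.23 to 8.18 (median 7.29) in Ncf1 mice and 6.66 to 7.24 (median 6.89) in wt mice in experiment II and at 7.06 to 8.86 (median 7.77) in Ncf1 mice and 6.12 to 6.29 (median 6.25) in wt mice in experiment I. For Camp and Ngp, 5 of 6 Ncf1 mice of experiment II and 6 of 6 of experiment I lay above every wt mouse of their experiment. The primary granule genes Mpo (6.0 in Ncf1 mice, 6.0 in wt mice, below the array median) and Elane (6.38 and 6.37) showed 0.00 ± 0.07 and 0.01 ± 0.06.

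**Figure D3:**
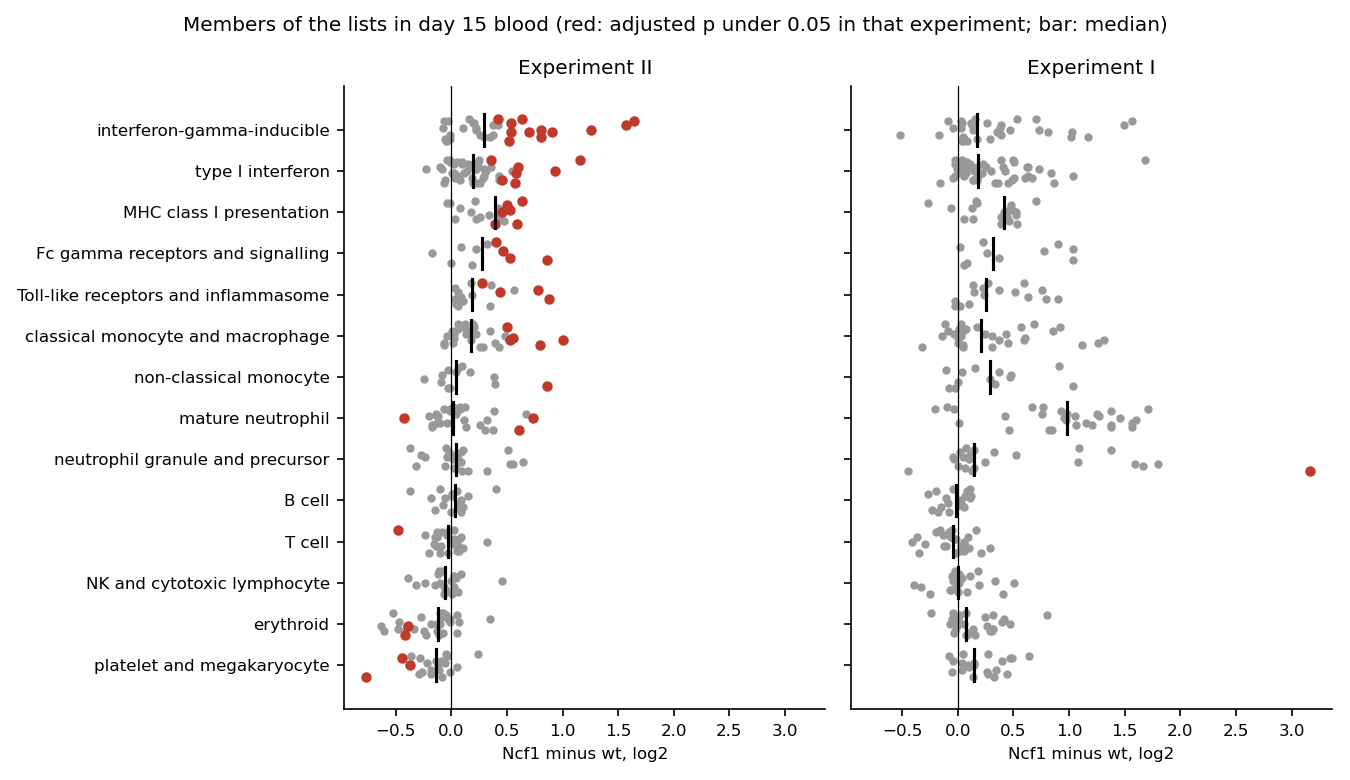
Difference Ncf1 minus wt (log2, x axis) of every measured member of 14 lists (rows) in day 15 blood, in experiment II (left) and experiment I (right); red points have an adjusted p under 0.05 in that experiment and bars are medians. The mature neutrophil median is 0.02 in experiment II and 0.98 in experiment I, while both interferon lists have medians above 0 in each.

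Lymphocyte, red cell and platelet genes gave no call over both experiments. None of 18 B cell, 26 T cell and 22 NK and cytotoxic genes was called in limma, with medians of -0.01, -0.04 and -0.02; over all genes 944 had an unadjusted p under 0.05. The closest were Vpreb3, a part of the surrogate light chain family (-0.28 ± 0.16, adjusted p = 0.9), Cd5, a T cell inhibitory receptor (-0.19 ± 0.07, adjusted p = 0.671), and Klrg1, an inhibitory receptor of effector lymphocytes (0.40 ± 0.15, adjusted p = 0.621). The dendritic cell, plasma cell, eosinophil, erythroid, platelet, cell cycle, antioxidant, complement, cytokine and immediate early lists likewise had 0 members called, and their medians lay between -0.04 and 0.08. The platelet list marked replicate 6 of experiment I: its mean was 9.88, against at most 8.86 in the other Ncf1 mice and 9.92 to 10.05 (median 9.99) in Ncf1 mice and 10.04 to 10.39 (median 10.13) in wt mice in experiment II and 7.46 to 9.88 (median 7.83) in Ncf1 mice and 7.25 to 8.98 (median 7.92) in wt mice over all of experiment I.

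Within experiment II alone, where the median residual SD over genes was 0.114 against 0.16 in experiment I, limma called 445 genes (2.68%), 226 higher (1.36%) and 219 lower (1.32%). The largest rises were those of Gbp2b (2.18 ± 0.41, adjusted p = 0.00486, and 0.61 ± 0.49 in experiment I), Gbp2, Gvin1 and Gbp3. Gbp2b overlapped in experiment I, at 6.33 to 8.67 (median 7.84) in Ncf1 mice and 6.60 to 8.55 (median 6.89) in wt mice. In experiment II it lay at 6.07 to 9.92 (median 8.85) in Ncf1 mice and 6.04 to 7.13 (median 6.33) in wt mice. There 5 of 6 Ncf1 mice lay above every wt mouse, and the lowest lay below the array median. Of the interferon-gamma-inducible list 12 of 33 were higher there, of the type I interferon list 7 of 49, and in both lists 0 were lower. Members called in experiment II and not over both experiments included the transcription factor genes Irf1 (0.81 ± 0.19, adjusted p = 0.0204), Batf2 (0.52 ± 0.13) and Irf9 (0.36 ± 0.07), and Phf11a (0.93 ± 0.16) and Phf11d (0.45 ± 0.09). Among Fc gamma receptor genes 4 of 10 were higher: Fcgr1 (0.53 ± 0.10), Fcgr4 (0.86 ± 0.18), the inhibitory Fcgr2b (0.40 ± 0.09) and Fcgr3 (0.47 ± 0.12). Of the MHC class I genes 6 of 19 were higher, among them H2-M3 (0.52 ± 0.07) and B2m (0.39 ± 0.09). Of the MHC class II list 4 of 14 were higher. These were the peptide exchange genes H2-DMa (0.48 ± 0.11) and H2-DMb1 (0.48 ± 0.10) and the costimulatory genes Cd86 and Cd40. No gene for a class II chain was among them. The inflammasome genes Casp1 (0.78 ± 0.10), Casp4 (0.88 ± 0.14) and Il18 (0.43 ± 0.10) and the receptor gene Tlr4 (0.28 ± 0.07) rose, 4 of 16. The classical monocyte list had 5 of 30 higher, with Lyz2, the lysozyme of myeloid cells (0.55 ± 0.15), and the lectin gene Clec4a3 (0.50 ± 0.12) beside Ms4a6d, Ly6c1 and Fcgr1. In the neutrophil lists, Fpr2 (0.74 ± 0.13) and Ifitm3 (0.61 ± 0.11) were higher and Pglyrp1, a peptidoglycan-binding granule protein gene, was lower (-0.42 ± 0.10, adjusted p = 0.0229; 0.95 ± 0.32 in experiment I).

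The falls of experiment II were led by Phospho1 (-1.36 ± 0.25, adjusted p = 0.00464), a phosphatase gene, Jund, an AP-1 factor gene (-1.23 ± 0.21), and Ybx3, a cold-shock domain gene (-1.0 ± 0.19). The platelet genes Nrgn (-0.77 ± 0.17), Vwf (-0.44 ± 0.11) and Gp5 (-0.37 ± 0.10) and the erythroid genes Sptb (-0.39 ± 0.08) and Tal1 (-0.42 ± 0.11) were lower there. So were the plasmacytoid dendritic cell genes Siglech (-0.39 ± 0.10) and Cox6a2 (-0.42 ± 0.10), and Zap70, the T cell receptor kinase gene (-0.48 ± 0.11). They were 3 of 21 platelet, 2 of 30 erythroid, 2 of 18 dendritic cell and 1 of 26 T cell members, against 1.32% of all genes lower. The list medians in experiment II were -0.138, -0.12, -0.006 and -0.026, in that order. Of the dendritic cell list 9 of 18 members lay above 0 there, and of the T cell list 12 of 26. The 2 directions differed in how they looked in experiment I. Of the 226 rises, 156 (69.0%) had the same sign in experiment I (147 without its replicate 6), against 48.4% of all genes above 0 in experiment II. Of the 219 falls, 64 (29.2%) had the same sign in experiment I (83 without replicate 6), against 51.8% of all genes below 0. Phospho1, Jund and Ybx3 showed 0.07 ± 0.39, 0.33 ± 0.35 and 0.18 ± 0.39 in experiment I. The mean level of the erythroid list was 8.82 to 9.36 (median 9.18) in Ncf1 mice and 9.13 to 9.55 (median 9.37) in wt mice in experiment II, with 4 of 30 members above 0, against 21 of 30 above 0 in experiment I. Over all 16593 genes, 8099 lay above 0 in experiment II and 8019 in experiment I. The part of the erythroid genes in the falls was not tested.

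Experiment I alone gave 1 call (0.00603%), Lcn2 (adjusted p = 0.0408), with 503 genes at an unadjusted p under 0.05; without replicate 6 it gave 0 by limma, with 460 at an unadjusted p under 0.05. The genotype effect differed between the experiments for 0 genes (0%) by limma, with 914 at an unadjusted p under 0.05 and 1 call, Lcn2, under array weights. Of the 24 genes called over both experiments, 20 were called in experiment II alone and 1 in experiment I alone.

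The same genes were then read at day 44, in different mice. Of the 24 genes called at day 15, 18 were also called at day 44, where limma called 1.43% of all genes. Gvin1 showed 1.64 ± 0.27 at day 44, Oasl2 1.47 ± 0.27, Gbp2 1.25 ± 0.26, Aif1 0.90 ± 0.13, Ms4a6d 1.48 ± 0.25 and Lcn2 2.46 ± 0.37. The 6 not called at day 44 were Gbp3 (0.36 ± 0.17), Brap (-0.24 ± 0.08), Casp4 (0.52 ± 0.17), Psmb9 (0.41 ± 0.14), H2-Q7 (0.12 ± 0.11) and Ly6c1 (0.60 ± 0.22). None of the 24 differed between the days by the test of the difference. That test gave 1 call among all genes (0.00603%), the zinc finger gene Zfp873, with -0.42 ± 0.08 for day 44 minus day 15 (adjusted p = 0.0466). The next 4 by p were Fam168b, Drg1, Senp3 and Slc30a5, all with an adjusted p above the threshold, and 1251 genes had an unadjusted p under 0.05. B cell genes had a median of -0.61 at day 44 and -0.01 at day 15, with 11 and 0 of 18 called lower, but 0 of these differed between the days after adjustment.

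**Figure D4:**
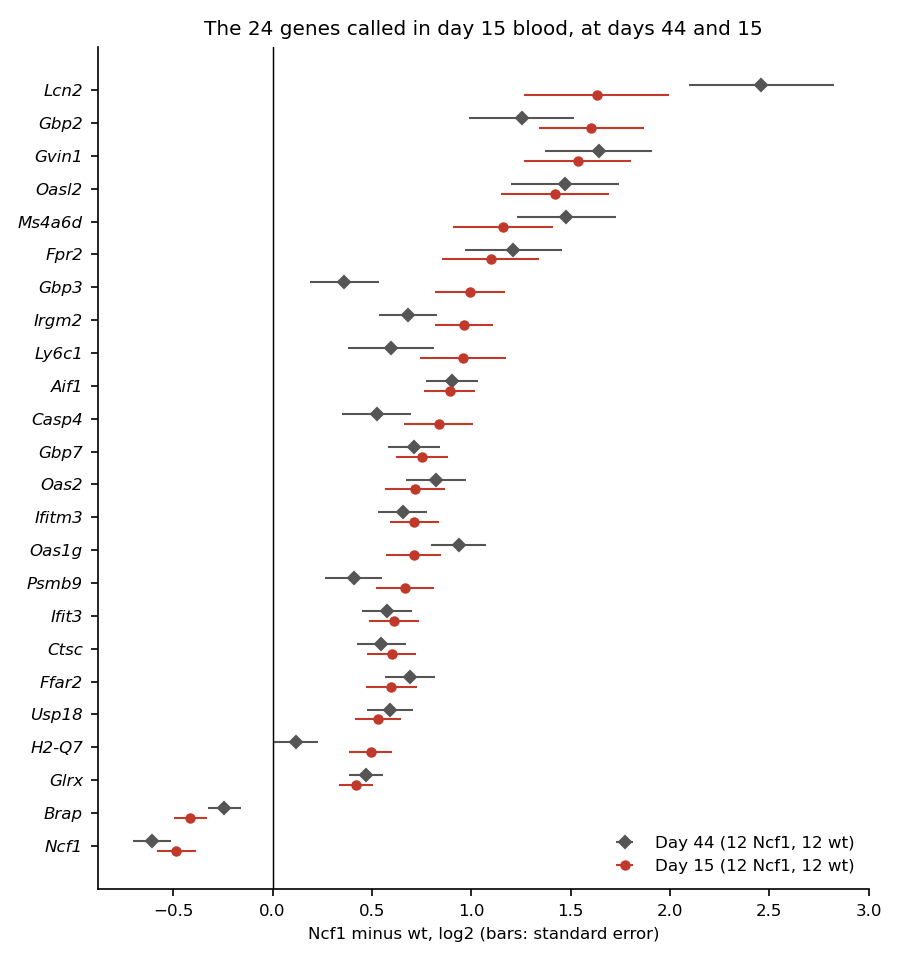
Difference Ncf1 minus wt (log2, x axis) with its standard error for the 24 genes called in day 15 blood (rows), at day 44 (diamonds) and day 15 (circles), 12 Ncf1 and 12 wt mice at each day. Every gene has the same sign at both days. H2-Q7 is 0.12 at day 44 and 0.49 at day 15, and Gbp3 is 0.36 and 0.99.

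Blood was last set against the spleen of the same 24 mice. The genotype effect differed between the tissues for 121 genes (0.729%), 20 with a higher effect in blood and 101 with a lower one. Of the 24 genes called in blood, 8 were among them. Aif1 showed 0.89 ± 0.13 in blood and -0.18 ± 0.13 in spleen (blood minus spleen 1.07 ± 0.16, adjusted p = 0.000582). Gbp2 showed 1.60 ± 0.26 and 0.37 ± 0.19 (1.24 ± 0.24, adjusted p = 0.0131), Gbp3 0.99 ± 0.17 and 0.06 ± 0.14 (0.93 ± 0.19), and Ifit3 0.61 ± 0.12 and -0.07 ± 0.12 (0.68 ± 0.15). Irgm2, Ctsc, Casp4 and Brap were the other 4. Gvin1, Gbp7, Oasl2, Oas1g, Fpr2, Lcn2 and Ncf1 were called in spleen as well, where 2.47% of all genes were. Of those that differed the other way, Mpo showed 0.00 ± 0.07 in blood and 1.36 ± 0.27 in spleen (blood minus spleen -1.35 ± 0.28, adjusted p = 0.0131). The red cell precursor genes Dmtn and Hemgn showed -0.36 ± 0.26 and -0.27 ± 0.23 in blood, against 1.32 ± 0.29 and 1.17 ± 0.29 in spleen. The neutrophil granule list had a median of 0.12 in blood and 0.94 in spleen, where 16 of 23 were called higher, and the interferon-gamma-inducible list 0.27 and 0.04. Transcripts of exocrine pancreas genes marked 5 spleen arrays of both days, 3 of them from the 24 day 15 mice. With the mice of all 5 arrays left out of the fit, 37 genes differed between the tissues, 31 of them among the 121. Aif1 (0.96 ± 0.16, adjusted p = 0.00719), Gbp2 (1.13 ± 0.26, adjusted p = 0.0436), Gbp3, Ifit3 and Ctsc were still called. Irgm2, Brap (both adjusted p = 0.062) and Casp4 (adjusted p = 0.0996) were not. Without replicate 6 of experiment I, 91 genes differed.

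**Figure D5:**
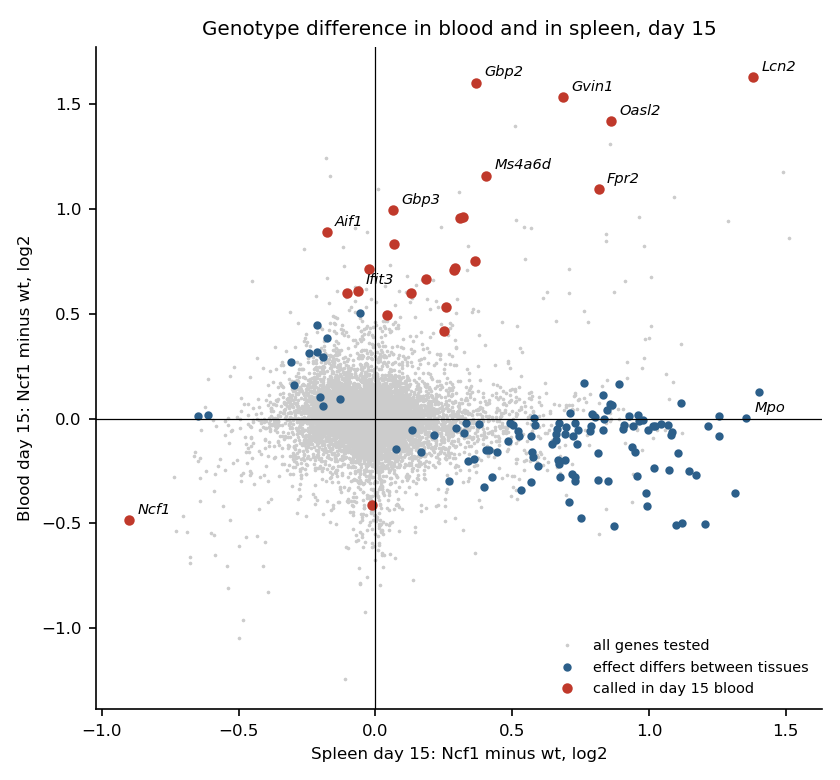
Difference Ncf1 minus wt at day 15 (log2) in spleen (x axis) and in blood (y axis) for all 16593 genes (grey), those whose effect differs between the tissues (blue) and the 24 called in blood (red, drawn over both). Gbp2, Gbp3, Aif1 and Ifit3 lie high in blood and between -0.18 and 0.37 in spleen, Lcn2, Oasl2 and Fpr2 are high in both, and Mpo is high in spleen alone.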

How the data were processed

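Total RNA of whole blood was depleted of globin transcripts, labelled and hybridised to Illumina mouse bead arrays, per the labels' protocols. The values deposited are linear probe intensity (46.2 to 43230 in blood), which the authors had brought to a common distribution in all 48 blood arrays, as the values show. Per the submitters' processing notes the authors used limma; background correction and filters: not given in the sources used here. Log2 was taken, although log2 values had been assumed before the table was read. Of 25697 probes, 23978 name 1 gene, 0 several and 1719 none; 23962 were matched by Entrez identifier to a gene table (GRCm38.p6), and the probe brightest on average across the 96 arrays stood for each of 16593 genes (4777 had several).

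Linear models were fitted to the 48 blood arrays (limma 3.58.1 under R 4.3.3), with terms for the 4 combinations of genotype and day and for the experiment. The contrasts of this model were the genotype effects at day 15 and day 44 and their difference. The effect within each experiment came from a separate fit of the blood arrays of that experiment. The difference between experiments came from a fit of the 48 arrays with a term for every combination of genotype, day and experiment. Tissue differences were fitted on blood minus spleen of each mouse. The threshold was an adjusted p of 0.05 (Benjamini-Hochberg). The steps were tested on simulated data.

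The arrays were labelled as separate mice, and the highest correlation of 2 blood arrays was 0.9954, so none was a copy of another. This cannot tell whether 2 arrays hold RNA of 1 mouse, since arrays of experiment II from different mice correlated nearly as highly. Precision is limited by the number of arrays. The comparison, the 25 gene lists and the promoter motif were chosen with earlier results of these data known. Some lists share genes. Genes were named by a rule: all NADPH oxidase genes with Ncf1, the 12 largest called rises and falls with 1 sign in both experiments, called members of the interferon, monocyte, neutrophil and Fc receptor lists, up to 6 called members of each other list, the 2 smallest p of a list without a call, and the 5 smallest p of a comparison with under 5 calls. Hbb-bt, Cd3e, Cd79a, Ppbp, S100a8, S100a9, Cxcr2, Csf3r, Mpo, Elane, Camp, Ngp, Prtn3, Dmtn, Hemgn and the largest changes of experiment II were named after their values were seen.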

Additional observations from a re-analysis of the deposited data

Results flagged for a closer look

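In 4 of the 96 sets of 6 mice tested (24 called genes, 2 genotypes, 2 experiments), 1 mouse lay far from the rest, and chance alone flags about 1 set in 20. Gbp2 was lowest at 9.15 in 1 wt mouse of experiment II. Brap was highest at 8.34 in 1 wt mouse of experiment I and at 7.54 in 1 wt mouse of experiment II. Ctsc was lowest at 10.68 in 1 wt mouse of experiment II.

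The genotype effect differed between the days for Zfp873 (day 44 minus day 15, -0.42 ± 0.08, with -0.24 ± 0.06 at day 44 and 0.18 ± 0.06 at day 15). It differed between the tissues for 8 genes called in blood, with blood minus spleen differences of 1.07 (Aif1), 0.64 (Irgm2), 1.24 (Gbp2), 0.93 (Gbp3), 0.68 (Ifit3), 0.70 (Ctsc), 0.77 (Casp4) and -0.40 (Brap).

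Among the 1719 probes without a gene named here, tested apart from the genes, 6 passed, all higher in Ncf1 mice: ILMN_2742861 by 1.36, ILMN_2725927 by 1.15, ILMN_1255416 by 0.78, ILMN_2593196 by 0.65, ILMN_1214731 by 0.57 and ILMN_2810539 by 0.55.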

How the results depend on the processing

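The 24 calls kept their direction under each alternative evaluated gene by gene (the fit of every probe was only counted). They all kept the call with trend and robust shrinkage, with genes above the median level, after a further quantile normalisation, after median centring and after normexp; 23 of 24 kept it with experiment by group terms and with array weights, 13 with the day 15 arrays alone, and 8 without the experiment term. Leaving out 1 array gave 11 to 37 called genes (10 to 35 higher, 1 to 3 lower), 2 to 7 type I interferon, 5 to 8 interferon-gamma-inducible, 0 to 4 monocyte and 1 to 5 neutrophil members higher, and 0 lymphocyte members lower. The lowest count, 11, came without Ncf1 replicate 6 of experiment I. Without Ncf1 replicate 3 of experiment I, 16 genes were called, with 0 monocyte members higher. In all 24 removals 11 genes kept the call: Aif1, Irgm2, Gbp2, Gvin1, Ifitm3, Gbp3, Gbp7, Oasl2, Oas1g, Glrx and Ncf1.

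Without the experiment term 8 genes were called, 8 higher and 0 lower, with 1 type I interferon, 0 monocyte and 0 neutrophil members. The day 15 arrays alone gave 0 lower. Experiment I alone gave 1 gene, higher, with 0 lower, 0 type I interferon, 0 interferon-gamma-inducible, 0 monocyte and 1 neutrophil member. Experiment II alone gave 445 genes, 226 higher and 219 lower, with 12 interferon-gamma-inducible and 6 monocyte members higher and 1 lymphocyte member lower. Array weights gave 51 genes, 45 higher and 6 lower, with 4 monocyte members, and genes above the median level also gave 4. Every probe gave 42 calls, 40 higher. Of genes not called over both experiments, Get3 (-0.33), Pglyrp1 (-0.42) and Vwf (-0.44) were called in experiment II alone with the opposite sign of the joint fit. The cause was not tested.

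Array weights gave 1 gene for the difference between experiments and 13 for that between days; trend and robust shrinkage gave 0 for the days. Chosen after seeing the data were the removals of replicate 6 of experiment I for differences of effects (0 genes between days, 0 between experiments, 91 between tissues), of mice with pancreatic transcripts in the spleen (37 between tissues), and the alternatives for experiment II, where single removals gave 162 (without 1 wt mouse, replicate 3) to 574 (without wt replicate 6) calls.

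No paired analysis was possible because the mice of the 2 genotypes are different animals whose numbers are not shared. Probes near the array median cannot show falls, which limits Ncf1 in experiment I and Cybb.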
